A study of Tupaia belangeri with 2 samples.

Results

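In the developing brain, radial glia line the ventricle, divide and give rise first to neurons and later to glia. Cells that enter the glial path take up a set of genes for extracellular matrix, cell adhesion and amino acid and metal transport while they keep radial glia genes, and mature astrocyte genes such as GFAP and AQP4 come later. The cells described here carry such a set in the embryonic tree shrew (Tupaia belangeri) and are called gliogenic cells below. They were chosen by their own measured UMI counts (unique molecular identifiers, which mark single captured transcripts). The set, called the module, holds BCAN (brevican, a matrix proteoglycan), VCAM1 (an adhesion molecule), SLC7A10 (a transporter of small neutral amino acids), SPON1 (a secreted matrix protein), CLU (clusterin, a secreted chaperone) and SLC39A12 (a zinc transporter).

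Whole brains of 2 embryos at 4 to 5 postconceptional weeks, freed of dura mater and blood vessels and dissociated with papain, were sequenced as 1 droplet library each (10x Chromium 3′ kit, v3 chemistry). There was no other condition. The data hold 9241 barcodes with 41868023 UMIs in embryo 1 and 9685 barcodes with 38077767 UMIs in embryo 2. Each embryo was 1 animal and 1 library, so standard errors of the fits rest on 2 animals, while intervals on shares and on ratios of UMI sums cover counting error only. Strain and sex were not given in the sources used here.

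A gliogenic cell had at least 500 genes detected, at least 1 UMI of at least 3 of the 6 module genes, at least 1 UMI of SLC1A3 or FABP7 (a glutamate transporter and a fatty acid binding protein of radial glia) and at most 1 UMI of COL1A1, COL1A2 and COL3A1 together (fibroblast collagens). Of 15998 cells with at least 500 genes, 142 were chosen, 73 in embryo 1 and 69 in embryo 2. That is 1.02% of 7177 cells (exact Clopper-Pearson 95% interval 0.798 to 1.28%) and 0.782% of 8821 cells (0.609 to 0.989%), a mean of 0.900% ± 0.166 (SD, n = 2). The intervals overlap, and they cover counting error only. The gliogenic cells hold 597743 and 501591 UMIs, with a median of 4924 and 4995 UMIs and of 1705 and 1712 genes per cell.

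3 other classes served for comparison, all with at least 500 genes, fewer than 3 module genes and the same limit on collagens. Non-dividing radial glia had a UMI of SLC1A3 or FABP7 and of PAX6 or GLI3 (transcription factors of radial glia), and none of MKI67 or TOP2A (proliferation genes); they number 141 and 156 cells with a median of 4008 and 3907 UMIs. Dividing progenitors had a UMI of SLC1A3 or FABP7 and at least 2 UMIs of MKI67 and TOP2A, and number 1303 and 1151 cells. Neurons had UMIs of STMN2 and DCX and none of SLC1A3, MKI67 or TOP2A, and number 629 and 998 cells. The classes were not made by clustering. Levels are given as UMIs per 1000000 UMIs of a class in an embryo (CPM).

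Several properties of the chosen cells bear on every sum over them. 6 cells of embryo 1 and 4 of embryo 2 held over 20000 UMIs, and these held 38.9% and 26.2% of the UMIs of the class, the largest of them 14.4% and 11.3%. No cell of the radial glia or neuron classes was that large. Among dividing progenitors, 36 and 37 cells were, and these held 14.8% and 17.8% of the UMIs of that class. Haemoglobin HBB stood at 41633 CPM in embryo 1 and 648 CPM in embryo 2. In embryo 1, 1 gliogenic cell held 45.9% of the HBB UMIs of the class. A UMI of MKI67 or TOP2A was present in 47.9% and 33.3% of the gliogenic cells, and one of PAX6 or GLI3 in 16.4% and 15.9%. None of the 142 shared its barcode sequence with a cell of the other embryo, and 7 per embryo were among the cells with the highest Scrublet doublet scores.

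Most cells that passed the other criteria had no module gene at all. In embryo 1, 2744 cells had 0 of the 6, 220 had 1 and 36 had 2. Just inside the threshold, 28 had 3, and 17, 22 and 6 had 4, 5 and 6. In embryo 2 the numbers from 0 to 6 were 3261, 243, 57, 22, 26, 15 and 6. In both embryos the number thus dropped steeply from 0 to 2 genes and lay between 15 and 28 cells from 3 to 5 genes, as the plot of cells by module genes shows. Without the criteria on SLC1A3, FABP7 and collagens, only 2 cells more per embryo would have had 3 or more module genes.

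**Figure D1:**
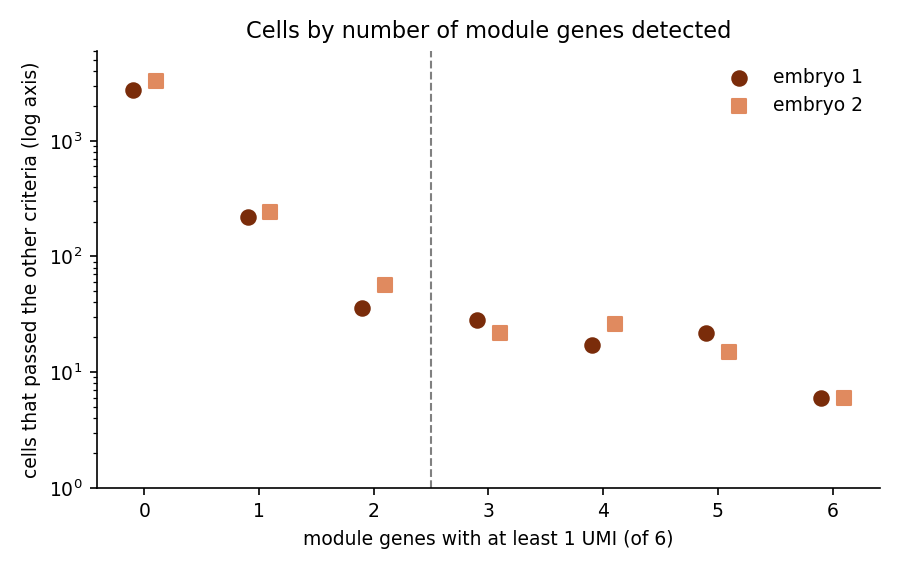
Number of cells (log axis) by the number of the 6 module genes with at least 1 UMI, for embryo 1 (circles) and embryo 2 (squares), among cells that passed the other criteria. The dashed line marks the threshold of 3 genes: 28 and 22 cells lie just inside it and 36 and 57 just outside.

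Of the single module genes, CLU was found in the most gliogenic cells, 89.0% in embryo 1 and 97.1% in embryo 2. SLC39A12 was found in the fewest, 43.8% and 37.7%. The other 4 lay between 60.3% and 78.1%. As this is what the rule chose on, it is given as a description. The genes differed in how far their transcripts lay within the chosen cells. For BCAN, 70.9% and 70.0% of all UMIs of the embryo were in gliogenic cells, although these are about 1 in 100 cells. For CLU, the share was 37.1% and 36.6%. The commonest combination was all genes but SLC39A12, in 17 cells, followed by all 6, in 12 cells.

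Each module gene was then read in cells that it had not helped to choose, by choosing the cells with at least 3 of the other 5. This left between 48 and 69 cells per embryo. CLU measured 747 and 1346 CPM in gliogenic cells chosen without it and 11.5 and 13.1 CPM in radial glia. The log2 fold change was 6.17 ± 0.27 (SE, edgeR quasi-likelihood fit). CLU was picked for the module with earlier results of these data known, so no p is given for it. In the fit without CLU, 8.68% of all genes tested were higher. SPON1 measured 278 and 289 CPM against 8.18 and 2.90 CPM (log2 fold change 5.59 ± 0.32), where 9.92% of all genes were higher. The embryos did not overlap between the classes for either gene, and both secreted proteins were also low in neurons, at 12.3 and 5.73 CPM for CLU and 2.96 and 3.32 CPM for SPON1.

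The transporter SLC7A10 measured 158 and 238 CPM against 1.64 and 7.29 CPM (log2 fold change 5.18 ± 0.37), with 9.75% of all genes higher in that fit. BCAN measured 132 and 145 CPM against 6.55 and 5.81 CPM (4.28 ± 0.37 on the log2 scale; 8.61% of all genes higher). For both, every gliogenic value stood over every radial glia value. As for CLU and SPON1, this is a description, since the share of all genes that lie apart in this way is not given. VCAM1 measured 334 and 177 CPM, while the radial glia held 0 UMIs in embryo 1 and 3 UMIs in embryo 2 (4.38 CPM). Over both embryos this is a ratio of 106 with a counting interval of 35.6 to 517 (9.04% of all genes higher). SLC39A12, the zinc transporter and the lowest of the 6, measured 70.6 and 70.7 CPM against 8.18 and 0 CPM (log2 fold change 3.98 ± 0.55; 9.39% of all genes higher). Of the 6, CLU alone passed the filter on low counts, which asks for 6.55 CPM in 2 libraries, in the other classes too. The other 5 were tested only because they are high in the gliogenic cells, so their values are a description and no p is given for them. In a fit without that filter, an alternative added after seeing the data, the log2 fold changes against radial glia were 3.95 for SLC39A12, 4.22 for BCAN, 5.12 for SLC7A10, 5.45 for SPON1, 6.09 for CLU and 6.42 for VCAM1.

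**Figure D2:**
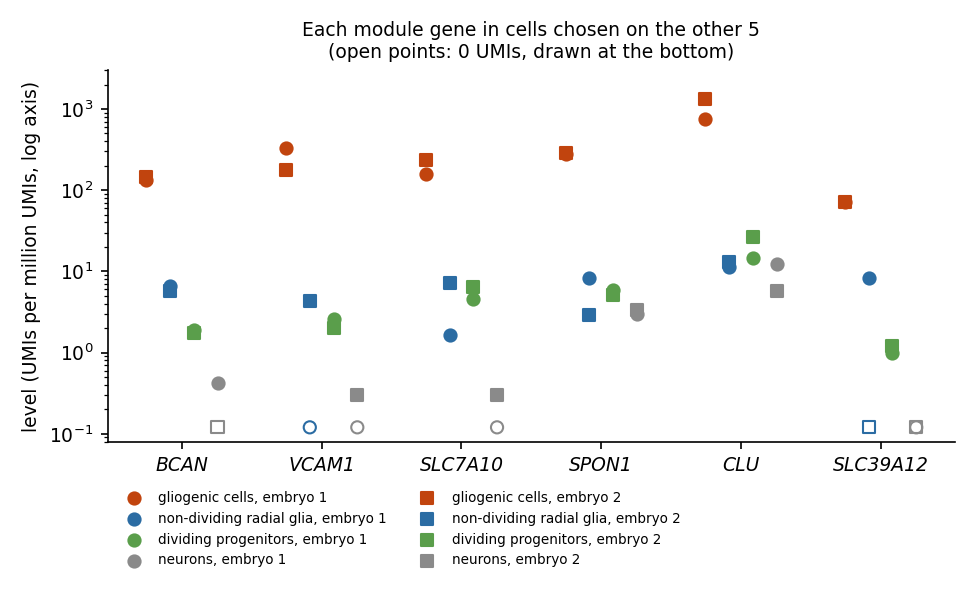
Level of each module gene (UMIs per 1000000 UMIs, log axis) in gliogenic cells chosen on the other 5 genes and in the 3 other classes, 1 point per embryo. In all 6 genes both embryos of the gliogenic cells, from 70.6 to 1346 CPM, lie above the other classes; open points stand for 0 UMIs.

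For all other genes, UMIs were summed per class and embryo and 7485 genes were tested in 1 fit. The 17 genes that define any class were not tested. Since the cells were chosen on the module, the differences describe what goes with the module genes in the same cells. Against non-dividing radial glia, 667 genes were higher (8.91% of those tested) and 570 lower (7.62%). These shares are the background for each count of a list against radial glia below. Against dividing progenitors, 976 were higher (13% of those tested) and 1158 lower (15.5%). That balance turned in several alternatives. There were 1048 higher and 994 lower with RLE size factors, and 743 and 649 in DESeq2, which changes the test as well as the scaling. Without cells of at least 1% haemoglobin UMIs there were 1088 and 1017. The median log2 fold change of all genes against radial glia was -0.05.

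Of the astrocyte list, the genes that could be compared at a level measured in other classes were mostly higher. Of 30 listed genes, 26 are named in the annotation and lie outside the class rules, and 18 were abundant enough to test. Of these 18, 13 were higher than in radial glia and none was lower, against 8.91% and 7.62% of all genes. Their median log2 fold change was 2.61. However, 9 of the 18, among them PLA2G7, ATP1B2, SLC4A4 and S100B, passed the filter on low counts only through the gliogenic cells, where they are high, so their direction was largely set by the filter. Of the other 9, 7 were higher and none lower, with a median of 2.38. Cystatin C (CST3), a secreted protease inhibitor, measured 2406 and 3116 CPM in gliogenic cells against 281 and 293 CPM in radial glia (log2 fold change 3.07 ± 0.10, edgeR, adjusted p = 4.3e-21). After each cell was thinned to 2000 UMIs, CST3 was found in 90.1% and 88.2% of gliogenic cells and in 41.7% and 46.4% of neurons. In neurons, taken as the background of free RNA, the gene was thus found about as often as in radial glia (35.4% and 43.0%), and the gliogenic cells stood clear of both.

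The endothelin receptor EDNRB measured 201 and 221 CPM against 19.6 and 29.2 CPM (log2 fold change 2.91 ± 0.24, edgeR, adjusted p = 5.8e-11). Connexin 43 (GJA1), the main gap junction protein of astrocytes, measured 197 and 148 CPM against 39.3 and 14.6 CPM (2.52 ± 0.26 on the log2 scale, edgeR, adjusted p = 4.3e-09). Both were near 0 in neurons, with at most 1.81 CPM for EDNRB and 2.96 CPM for GJA1. The matrix protein gene SPARC measured 97.0 and 77.8 CPM against 22.9 and 7.29 CPM (2.38 ± 0.35 on the log2 scale, edgeR, adjusted p = 4.4e-06). S1PR1, a sphingosine 1-phosphate receptor, measured 90.3 and 112 CPM against 42.5 and 37.9 CPM (1.15 ± 0.28 on the log2 scale, edgeR, adjusted p = 0.0032). In each of these 4 genes the embryos of one class lay apart from those of the other. This is a description, as the share of all genes that do so is not given.

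Other astrocyte genes rested on few UMIs in radial glia, and for these the ratio of UMI sums over both embryos is given with its counting interval. PLA2G7, a phospholipase of astrocytes, measured 48.5 and 33.9 CPM against 2 UMIs in all radial glia, a ratio of 27.1 (7.10 to 231). ATP1B2 and SLC4A4, a sodium pump subunit and a bicarbonate cotransporter, had 24 and 18 UMIs in gliogenic cells against 2 and 1, ratios of 14.2 (3.51 to 124) and 21.2 (3.35 to 885). S100B, a calcium-binding protein of astrocytes, had 28 UMIs against 0, which makes it at least 11.0-fold higher when 3 counts over the radial glia are taken as the floor. These 4 passed the filter only through the gliogenic cells, and their values are given as a description.

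The lipid carrier gene APOE measured 112 and 169 CPM against 8.18 and 4.38 CPM in radial glia (log2 fold change 4.57 ± 0.71, edgeR, adjusted p = 8.9e-06; 0.088 without the block for embryo). In dividing progenitors it measured 13.1 CPM in embryo 1 and 166 CPM in embryo 2, so there the embryos overlapped with the gliogenic cells. GLUL, the glutamine synthetase of astrocytes, measured 68.6 and 79.7 CPM against 73.6 and 112 CPM and did not pass the test (edgeR, adjusted p = 0.10). Against dividing progenitors GLUL was lower (-0.48 ± 0.18 on the log2 scale, edgeR, adjusted p = 0.045), a call absent in DESeq2. It was the 1 astrocyte gene lower there (15.5% of all genes), while 15 of 18 were higher (13% of all genes).

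Genes of mature astrocytes were scarce. GFAP, the intermediate filament protein, had 11 and 3 UMIs, or 18.4 and 5.98 CPM, against 0 in radial glia of both embryos and 3 UMIs per embryo in the far larger dividing class. The water channel AQP4 had 4 UMIs in each embryo and 0 in the other 3 classes. SLC1A2, the second glial glutamate transporter, had 4 and 5 UMIs. GFAP and AQP4 were too low to be tested. SLC1A2 measured 6.69 and 9.97 CPM against 3.27 and 2.92 CPM in non-dividing radial glia (1.22 ± 0.91 on the log2 scale, SE) and was not called. It passed the filter on low counts only through the gliogenic cells, so this is a description with no p. SOX10 and MBP, genes of the oligodendrocyte lineage, had 0 UMIs in gliogenic cells, which allows up to 5.02 and 5.98 CPM by the floor of 3 counts.

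Genes of the radial glia list were higher too. Of 14 tested, 11 were higher than in non-dividing radial glia and none lower, against 8.91% and 7.62% of all genes. Their median log2 fold change was 1.17. Without cells having 2 or more UMIs of STMN2 and DCX, 7 of 14 were higher (4.24% of all genes in that fit) and 1, SFRP1, was lower. The growth factor PTN measured 3299 and 3403 CPM against 1353 and 922 CPM (log2 fold change 1.39 ± 0.10, edgeR, adjusted p = 9.0e-13). PTPRZ1, the receptor phosphatase that binds it, measured 1097 and 1274 CPM against 242 and 209 CPM (2.22 ± 0.14 on the log2 scale, edgeR, adjusted p = 6.3e-14). Ligand and receptor were thus both high in the same class.

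The intermediate filament gene VIM measured 2939 and 2620 CPM against 1474 and 1269 CPM (log2 fold change 0.84 ± 0.08, edgeR, adjusted p = 6.0e-10). QKI, an RNA-binding protein of glia, measured 1056 and 871 CPM against 308 and 309 CPM (1.46 ± 0.11 on the log2 scale, edgeR, adjusted p = 8.1e-12). Tenascin C (TNC), a matrix protein of the germinal zone, measured 151 and 163 CPM against 22.9 and 35.0 CPM (2.23 ± 0.24 on the log2 scale, edgeR, adjusted p = 1.2e-08). NES and DBI were higher by 1.14 ± 0.15 and 1.21 ± 0.12 on the log2 scale (edgeR, adjusted p = 8.0e-07 and 1.0e-09). Against dividing progenitors, 10 of the 14 genes were higher (13% of all genes) and 1 lower (15.5% of all genes).

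**Figure D3:**
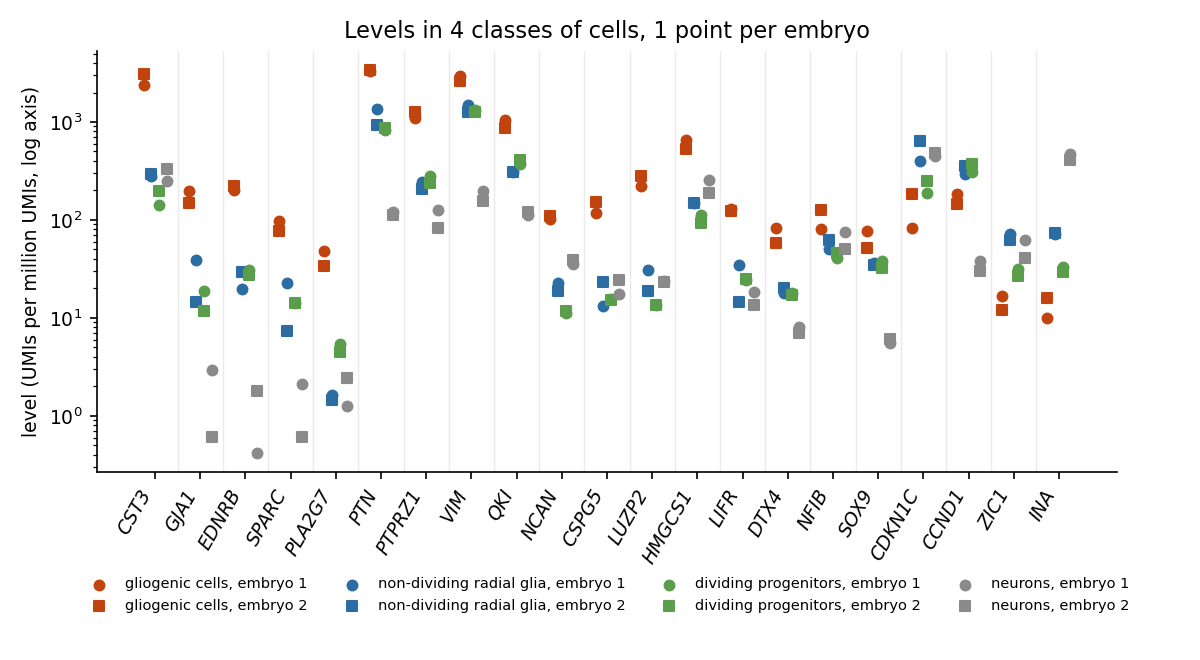
Levels (UMIs per 1000000 UMIs, log axis) of genes from the lists in gliogenic cells (red), non-dividing radial glia (blue), dividing progenitors (green) and neurons (grey), with circles for embryo 1 and squares for embryo 2. CST3, EDNRB, PTN and PTPRZ1 lie highest in gliogenic cells in both embryos, and CDKN1C, CCND1, ZIC1 and INA lie lower in gliogenic cells than in radial glia.

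Matrix genes followed the same direction, though the list shares members with those above. Of 10 tested, 7 were higher and 1 was lower than in radial glia, against 8.91% and 7.62% of all genes. Their median log2 fold change was 1.89. Of the 7, SPARC and SPARCL1 also belong to the astrocyte list, and TNC and PTPRZ1 to the radial glia list. Neurocan (NCAN), a proteoglycan of the same family as brevican, measured 102 and 110 CPM against 22.9 and 19.0 CPM (log2 fold change 2.16 ± 0.27, edgeR, adjusted p = 2.7e-07). The name NCAN covers 9 gene models in the annotation, whose UMIs were summed, so that other genes may be counted with it. CSPG5 (neuroglycan C) measured 117 and 152 CPM against 13.1 and 23.3 CPM (2.67 ± 0.28 on the log2 scale, edgeR, adjusted p = 7.1e-09). Versican (VCAN), another member of the family, was the 1 lower gene, at 33.5 and 45.9 CPM against 78.5 and 51.0 CPM (-0.90 ± 0.31 on the log2 scale, edgeR, adjusted p = 0.039). This call was lost under most alternatives, among them RLE size factors (edgeR, adjusted p = 0.054).

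Of 11 lipid genes tested, 6 were higher and 2 lower, against 8.91% and 7.62% of all genes. Their median log2 fold change was 1.19. PLA2G7, 1 of the 6, and SCD passed the filter on low counts only through the gliogenic cells. Of the other 9 genes, 5 were higher and 2 lower. HMGCS1, an enzyme of cholesterol synthesis, measured 651 and 534 CPM against 147 and 150 CPM (log2 fold change 1.80 ± 0.14, edgeR, adjusted p = 6.7e-12). The phospholipid transfer protein PLTP was higher by 2.99 ± 0.44 on the log2 scale (edgeR, adjusted p = 3.1e-06). The fatty acid binding protein FABP5 was lower, at 366 and 500 CPM against 475 and 572 CPM (-0.46 ± 0.10, edgeR, adjusted p = 0.00082). The classes overlapped across embryos, and the call was lost without the block for embryo (edgeR, adjusted p = 0.099) and with at least 2 module genes as the rule (-0.20 on the log2 scale, edgeR, adjusted p = 0.25). FABP5 is the sum of 6 gene models of that name, and reads could be split among them.

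Of 8 genes for transporters, 4 were higher (8.91% of all genes) and none lower (7.62% of all genes). Among the 8, the filter on low counts was passed by 5, SLC15A2 included, only through the gliogenic cells. The peptide transporter SLC15A2 measured 35.1 and 47.8 CPM against 11.5 and 4.38 CPM (log2 fold change 2.24 ± 0.51), with no UMI in neurons of either embryo. Of the oligodendrocyte precursor list, 2 genes were abundant enough to test, and LUZP2, a leucine zipper protein known in glial precursors, was higher: 222 and 281 CPM against 31.1 and 19.0 CPM (3.16 ± 0.23 on the log2 scale, edgeR, adjusted p = 3.2e-12). PDGFRA, the defining receptor of those precursors, had 3 and 1 UMIs.

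The transcription factors that drive gliogenesis in other mammals showed no call against radial glia. Of 9 tested, 0 passed in either direction by edgeR and 0 by DESeq2, and 2 were higher at an unadjusted p under 0.05 by each tool. Over all genes, 8.91% were higher and 7.62% lower by edgeR. A count of 0 in 9 lies near these shares, so nothing is read from it about the list. NFIB measured 80.3 and 128 CPM against 50.7 and 62.7 CPM (log2 fold change 0.66 ± 0.27, edgeR, adjusted p = 0.097), NFIX 90.3 and 91.7 CPM against 54.0 and 49.6 CPM (0.60 ± 0.31, edgeR, adjusted p = 0.20), and SOX9 77.0 and 51.8 CPM against 36.0 and 35.0 CPM (0.68 ± 0.27, edgeR, adjusted p = 0.090). NFIB is the sum of 2 gene models. In all 3 genes both gliogenic embryos lay above both radial glia embryos, but the differences did not pass. The share of all genes that lie apart in this way is not given, so nothing is read from the order of the embryos. Both NFIB and SOX9 passed under some alternatives. NFIB was higher without gliogenic cells having a UMI of MKI67 or TOP2A (0.94 on the log2 scale, edgeR, adjusted p = 0.013), without cells having 2 or more UMIs of STMN2 and DCX (1.48, adjusted p = 0.014), without cells of at least 1% haemoglobin UMIs (0.76, adjusted p = 0.039) and without the highest Scrublet scores (1.10, adjusted p = 0.012). SOX9 was higher with at least 2 module genes as the rule (0.81 on the log2 scale, edgeR, adjusted p = 0.027), without the highest Scrublet scores (0.88, adjusted p = 0.030) and against radial glia with 0 module genes (0.87, adjusted p = 0.038). Against dividing progenitors, 3 of the 9 were higher (13% of all genes). These were NFIB (1.00 ± 0.21, edgeR, adjusted p = 0.00042), NFIX (0.98 ± 0.24, edgeR, adjusted p = 0.0020) and SOX9 (0.64 ± 0.20, edgeR, adjusted p = 0.016). NFIA measured 23.4 and 17.9 CPM and did not pass in either comparison.

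Receptors and targets of signalling pathways were read from lists of the Notch, FGF and EGF, and BMP and JAK-STAT pathways. Notch signalling keeps radial glia undifferentiated, and JAK-STAT signalling through LIFR turns on astrocyte genes. Of 14 Notch genes tested, 5 (HES4, LFNG, DTX4, HEY2 and NOTCH2) were higher than in radial glia (8.91% of all genes) and 1 was lower (7.62% of all genes). Of the 14, 4 passed the filter on low counts only through the gliogenic cells, HEY2 among them. Of the other 10, 4 were higher and 1 was lower. NOTCH2 was close to the threshold (edgeR, adjusted p = 0.046) and lost its call in 10 alternatives, among them DESeq2 (adjusted p = 0.13) and the fit without the block for embryo (edgeR, adjusted p = 0.11). The target HES4 measured 109 and 112 CPM against 34.4 and 37.9 CPM (log2 fold change 1.43 ± 0.24, edgeR, adjusted p = 2.7e-05). LFNG, which modifies the receptors, measured 134 and 122 CPM against 54.0 and 49.6 CPM (1.11 ± 0.21, edgeR, adjusted p = 0.00022). The ubiquitin ligase gene DTX4 measured 83.6 and 57.8 CPM against 18.0 and 20.4 CPM (1.69 ± 0.32, edgeR, adjusted p = 0.00017). The ligand DLL3, a gene of cells entering neuronal differentiation, was lower, at 8.36 and 3.99 CPM against 31.1 and 36.5 CPM (-2.55 ± 0.53, edgeR, adjusted p = 0.00057). The calls of HES4, LFNG and NOTCH2 were lost when cells with 2 or more UMIs of STMN2 and DCX were left out (0.88, 0.46 and 1.76 on the log2 scale, edgeR, adjusted p = 0.11, 0.46 and 0.28). HEY2, at 3.13 on the log2 scale, was not called there either. In that fit, 2 of 15 Notch genes were higher (4.24% of all genes).

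Of 9 genes of the BMP and JAK-STAT list, LIFR alone was higher, and none was lower. This is near the share over all genes, of which 8.91% were higher, so nothing is read from the count about the list. LIFR, the receptor of leukaemia inhibitory factor, measured 129 and 124 CPM against 34.4 and 14.6 CPM (log2 fold change 2.21 ± 0.28, edgeR, adjusted p = 2.2e-07). Against dividing progenitors, 5 of the 9 were higher (13% of all genes), with LIFR at 2.13 ± 0.19 (edgeR, adjusted p = 7.5e-11). Of 6 genes of the FGF and EGF list, 2 were higher than in radial glia (8.91% of all genes). These were FGFR3 (1.30 ± 0.37, edgeR, adjusted p = 0.011), a receptor of astrocyte precursors, and SPRED1 (1.68 ± 0.42, edgeR, adjusted p = 0.0040), an inhibitor of the pathway. Both lost the call when cells with 2 or more UMIs of STMN2 and DCX were left out, with log2 fold changes of 1.40 and 1.49 (edgeR, adjusted p = 0.12 for each), and with at least 2 module genes as the rule, at 1.00 and 1.17 (edgeR, adjusted p = 0.0505 and 0.063).

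**Figure D4:**
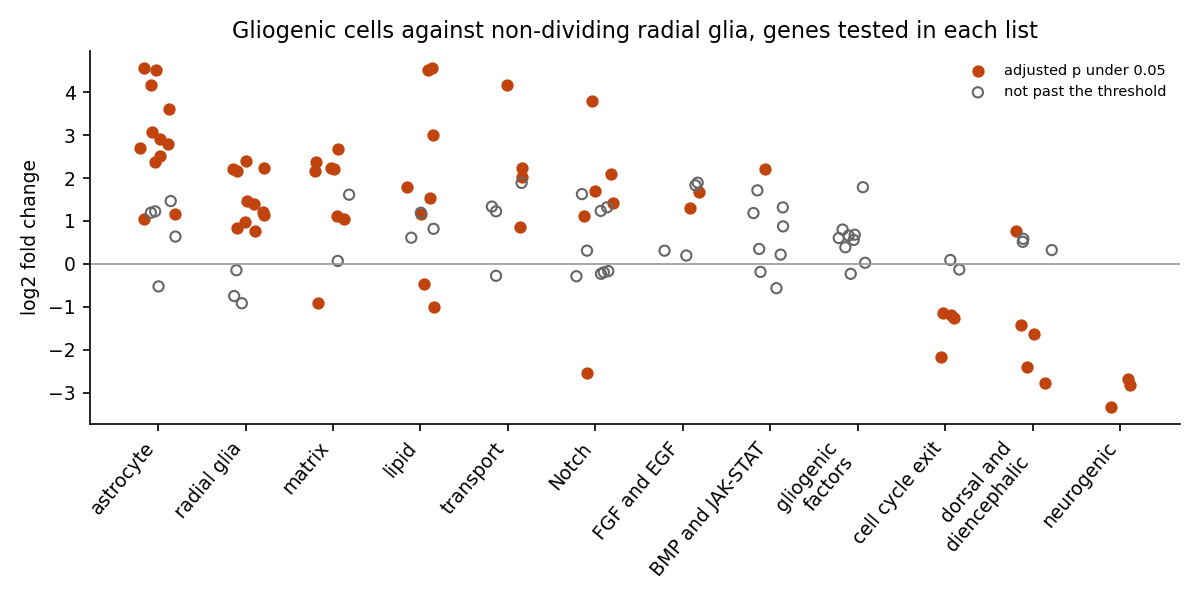
Log2 fold changes of the genes tested in each list, gliogenic cells against non-dividing radial glia, with filled points for an edgeR adjusted p under 0.05. S100B, EOMES and INSM1 are not drawn, as they have 0 UMIs in one class. The points of the astrocyte list lie mostly above 0 and its median is 2.61, while all calls of the cell cycle exit and neurogenic lists lie below 0.

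Of 6 genes of cell cycle exit and D-type cyclins, 4 were lower than in radial glia (7.62% of all genes) and none higher (8.91% of all genes). These were the exit genes CDKN1C and BTG1 and the cyclins CCND1 and CCND2, while the exit genes CDKN1B and BTG2 did not pass. CDKN1C, an inhibitor of the cell cycle, measured 82.0 and 185 CPM against 404 and 636 CPM (log2 fold change -2.17 ± 0.17, edgeR, adjusted p = 8.0e-12). CCND1 and CCND2, D-type cyclins, were lower by -1.14 ± 0.16 and -1.19 ± 0.11 (edgeR, adjusted p = 1.7e-06 and 2.8e-10). CCND2 measured 321 and 369 CPM against 623 and 769 CPM, and 1 gliogenic cell of embryo 1 held 49.0% of that embryo's UMIs of the class. An inhibitor and 2 cyclins thus moved in 1 direction.

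All 5 neurogenic genes tested were lower, against 7.62% of all genes. Their median log2 fold change was -3.34, or -2.69 when genes with no UMI are set at their bound. EOMES, a factor of intermediate progenitors, and INSM1, a factor of delaminating progenitors, had 0 UMIs in gliogenic cells against 15 and 11 in radial glia, at least 4.24-fold and 3.11-fold lower with 3 counts over the gliogenic cells as the floor. Of the neuron list, 3 genes were tested and 2 were lower (7.62% of all genes). Both classes carried neuronal transcripts. STMN2, a stathmin of neurons, stood at 897 and 1020 CPM in radial glia and at 510 and 702 CPM in gliogenic cells, against 3381 and 3463 CPM in neurons. Cells with 2 or more UMIs of STMN2 and DCX made up 58.9% and 59.4% of the gliogenic cells. They made up 31.9% and 42.9% of radial glia and 24.4% and 31.6% of dividing progenitors. With cells of 2 or more UMIs of STMN2 and DCX left out of all classes but neurons, 0 of 6 neurogenic genes tested were called by edgeR, and 3 were lower at an unadjusted p under 0.05.

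STMN2 was also read beside DCX, a microtubule protein of young neurons. In gliogenic cells there were 305 and 352 UMIs of STMN2 against 5 and 2 of DCX, or 61.0 and 176 per UMI of DCX. These ratios rest on very few UMIs of DCX. In dividing progenitors the ratio was 24.9 and 28.0, and in radial glia 23.8 and 35.0. In the neuron class it was 10.3 and 9.60. Every neuron was chosen with a UMI of DCX, which lowers that ratio, so it is no reference for the other classes. INA, a neuronal intermediate filament protein, measured 10.0 and 15.9 CPM in gliogenic cells, 72.0 and 72.9 CPM in radial glia and 469 and 407 CPM in neurons. STMN2 was therefore present in gliogenic cells at a fraction of its neuronal level with very little DCX or INA beside it. The name STMN2 covers 2 gene models, and all UMIs in the 4 classes lay in 1 of them. The part of free RNA in this was not tested.

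Genes were also named by rank, as the 10 highest and 10 lowest of those called against radial glia with at least 50 CPM in the higher class. SULF1, an enzyme that trims heparan sulfate outside the cell, came first. It measured 211 CPM in both embryos of the gliogenic cells and had 1 UMI in all radial glia, a ratio of 274 with a counting interval of 48.6 to 10855. In dividing progenitors it measured 2.13 and 2.85 CPM. SULF1 was found in 38.4% and 39.1% of the gliogenic cells, and the top cell held 21.4% and 17.9% of its UMIs. It was thus spread over many cells and was not a gene of the rule. SULF1 passed the filter on low counts only through the gliogenic cells, as did DIPK1C, S6A11 and HAS2 below, and these 4 are described without a p.

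The myelin protein gene PMP22, which is also active outside myelin, measured 159 and 309 CPM against 14.7 and 2.92 CPM (log2 fold change 4.59 ± 0.33, edgeR, adjusted p = 2.6e-12) and was found in 53.4% and 71.0% of the gliogenic cells. DIPK1C had 62 UMIs against 3, a ratio of 24.4 (7.96 to 121). APOE, given above, was also among the 10. The other 6 were TTK, CKAP2L, NUSAP1, DLGAP5, CCNA2 and AURKB, all genes of mitosis. Their direction follows from the class rules, since the radial glia were chosen without MKI67 or TOP2A and the gliogenic cells were not. For the same reason, 9 of 17 genes of the dividing list were higher than in radial glia and all 17 were lower than in dividing progenitors, and nothing is read from either count. Among gliogenic cells without a UMI of MKI67 or TOP2A, 0 of the 17 were higher than in radial glia and 6 lower (edgeR; 0 higher and 9 lower at an unadjusted p under 0.05).

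The 10 lowest genes were mostly neuronal or erythroid. DLX5, a factor of inhibitory neurons, measured 1.67 and 5.98 CPM against 50.7 and 71.5 CPM (log2 fold change -4.21 ± 0.49, edgeR, adjusted p = 4.9e-08). NEUROD6, a factor of excitatory neurons, measured 3.35 and 17.9 CPM against 106 and 84.6 CPM (-3.47 ± 0.40, edgeR, adjusted p = 4.9e-08). SRRM4, a splicing regulator of neurons, measured 18.4 and 35.9 CPM against 139 and 155 CPM (-2.67 ± 0.27, edgeR, adjusted p = 2.8e-09). ST18, INA, ABRACL and CRABP1 were lower by -3.58, -2.70, -2.65 and -2.61 on the log2 scale. CRABP1 lost its call in 5 of the alternatives, among them DESeq2 (adjusted p = 0.16). Without cells having 2 or more UMIs of STMN2 and DCX, DLX5, NEUROD6 and INA did not pass, at -4.56, -2.40 and 0.34 on the log2 scale (edgeR, adjusted p = 0.72, 0.28 and 0.94). The globin genes HBG1 and HBE1 were also among the 10. HBE1 measured 25.1 and 19.9 CPM against 24.5 and 438 CPM, so that the difference lies in embryo 2, and both lost their call without cells of at least 1% haemoglobin UMIs (edgeR, adjusted p = 0.15 and 0.91).

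Against dividing progenitors, the 5 highest by the same rule were SULF1, S6A11, HAS2, CP and DIPK1C. S6A11, which the annotation names as the UniProt entry of the GABA transporter SLC6A11, measured 56.9 and 89.7 CPM against 0.502 and 2.72 CPM (log2 fold change 5.30 ± 0.37). HAS2, a hyaluronan synthase, measured 107 and 97.7 CPM against 2.13 and 4.08 CPM (4.83 ± 0.29 on the log2 scale) and was found in 35.6% and 37.7% of the gliogenic cells. Ceruloplasmin (CP), a copper-carrying ferroxidase, measured 783 and 159 CPM against 17.0 and 14.5 CPM, but 1 cell per embryo held 78.6% and 75.0% of its UMIs. Without those cells CP stood at 173 and 40.2 CPM. SULF1 and HAS2 thus rested on many cells and CP on few.

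The 5 lowest against dividing progenitors were HBG1, HBE1, DLX5, TTR and H15. HBG1 and HBE1 lost these calls too without cells of at least 1% haemoglobin UMIs (edgeR, adjusted p = 0.15 and 0.25). TTR, the transthyretin of choroid plexus, measured 20.1 and 29.9 CPM against 274 and 373 CPM (log2 fold change -3.93 ± 0.31, edgeR, adjusted p = 5.4e-12). With at least 2 module genes as the rule, its log2 fold change was 1.08 (edgeR, adjusted p = 0.28), so that the direction depends on the threshold. H15, named as a UniProt histone entry, is a gene of dividing cells.

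Markers of other cell types were counted over whole lists. Of 7 microglia genes named in the annotation, 0 had a UMI in gliogenic cells of embryo 1 and 3 in embryo 2, where the list summed to 29.9 CPM with AIF1 at 17.9 CPM, against 13.1 CPM in radial glia, 25.8 CPM in dividing progenitors and 13.9 CPM in neurons of that embryo. CSF1R, CX3CR1, TYROBP and SPI1 were at 0 in both. The 11 endothelial and pericyte genes summed to 5.02 and 1.99 CPM, and the 9 fibroblast genes, collagens of the rule included, to 16.7 and 14.0 CPM. Of the fibroblast list 1 gene was tested and did not pass. The 7 choroid plexus genes summed to 36.8 and 43.9 CPM, against 165 and 94.8 CPM in radial glia, and 1 of 2 tested, TTR, was lower. That call turned with at least 2 module genes as the rule (2.84 on the log2 scale, edgeR, adjusted p = 0.028) and was lost after thinning (adjusted p = 0.073) and without cells having 2 or more UMIs of STMN2 and DCX (adjusted p = 0.83). The 6 ependymal genes summed to 212 and 295 CPM, of which CCDC39 made up 182 and 239 CPM. Of the 4 tested, 3 were higher than in radial glia (8.91% of all genes), 1 of them a gene that passed the filter only through the gliogenic cells. The 8 erythroid genes summed to 42495 CPM in embryo 1 and 670 CPM in embryo 2, nearly all HBB, and 1 of 6 tested was lower. All 6 were lower without gliogenic cells having a UMI of MKI67 or TOP2A. The same count was found without cells having 2 or more UMIs of STMN2 and DCX. Vessel markers were thus near 0, the microglia list was highest in gliogenic cells of embryo 2 and at 0 in those of embryo 1, and globin transcripts were heavy in embryo 1. Their part in the results was not tested, and the calls of the astrocyte genes named above were kept without cells of at least 1% haemoglobin UMIs.

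Of 8 genes tested that respond to cell handling, FOS, EGR1 and DNAJB1 were higher than in radial glia (8.91% of all genes) and none was lower (7.62% of all genes). The other 5 did not pass, among them JUND and IER2, each at -0.43 on the log2 scale. DNAJB1 lost its call without gliogenic cells having a UMI of MKI67 or TOP2A (edgeR, adjusted p = 0.19) and without cells having 2 or more UMIs of STMN2 and DCX (edgeR, adjusted p = 0.071). The immediate early gene FOS measured 830 and 951 CPM against 245 and 373 CPM (log2 fold change 1.35 ± 0.11, edgeR, adjusted p = 5.3e-11). In neurons FOS stood at 201 and 243 CPM. FOS is induced by dissociation as well as by signalling, and which of them applied was not tested.

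The gliogenic cells differed among themselves with the number of module genes. Cells with 3 of the 6 held CST3 at 889 and 919 CPM, close to the cells just outside the threshold with 2 of the 6 (1182 and 711 CPM). With 4 of the 6, CST3 was at 4169 and 5511 CPM, and with 5 or 6 at 4479 and 4163 CPM. CENPF, a gene of mitosis, went the other way, from 2389 and 1668 CPM with 3 module genes to 234 and 201 CPM with 4. These values are a description, as the cells were ordered by the genes that chose them.

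**Figure D5:**
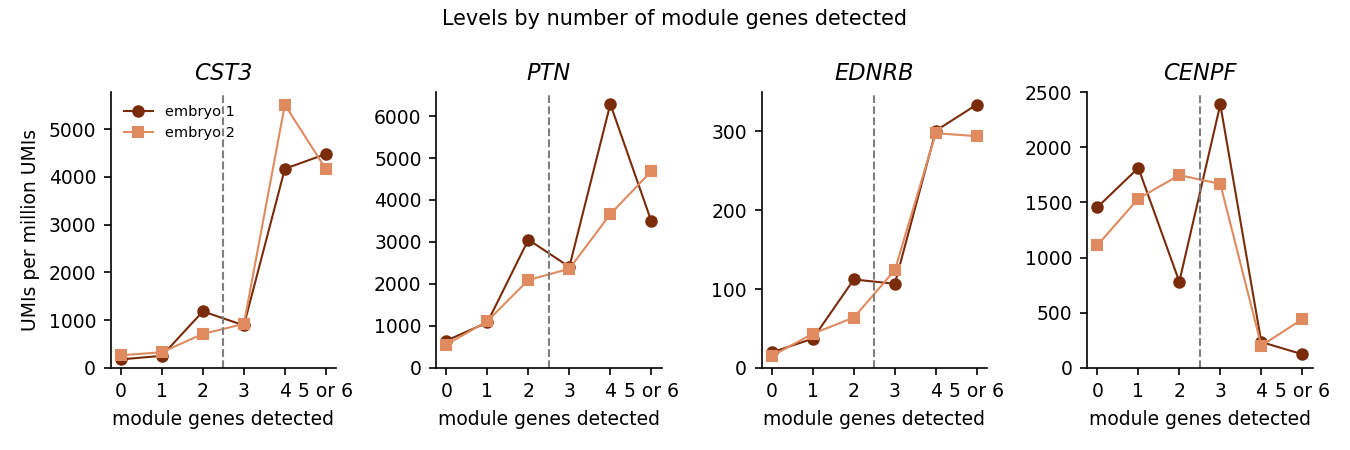
Levels (UMIs per 1000000 UMIs) of CST3, PTN, EDNRB and CENPF by the number of module genes detected in a cell, for embryo 1 (circles) and embryo 2 (squares); the dashed line marks the threshold of 3. CST3 and EDNRB lie far higher with 4 than with 3 module genes, at 4169 and 5511 against 889 and 919 CPM for CST3, while CENPF lies lower.

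The large and the dividing cells were mostly among those with 3 module genes. Of the 28 and 22 cells with 3 module genes, 6 and 3 held over 20000 UMIs and 9 and 10 had at least 2 UMIs of MKI67 and TOP2A. Of the 45 and 47 cells with at least 4 module genes, 0 and 1 were that large. When every cell was thinned to 2000 UMIs, 32 cells of 5794 and 35 of 6904 met the rule, or 0.552% and 0.507%.

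Split by division, 14 and 17 gliogenic cells had at least 2 UMIs of MKI67 and TOP2A and 38 and 46 had none. The dividing ones had a median of 8665 and 8916 UMIs, against 4587 and 4572. BCAN stood at 51.8 and 46.9 CPM in the dividing ones and at 278 and 206 CPM in the others. CLU stood at 137 and 268 CPM against 924 and 1392 CPM, and CST3 at 803 and 1225 CPM against 4106 and 4558 CPM. PTN differed less, with 2154 and 2000 CPM against 4036 and 4641 CPM. All 4 genes lay lower in the dividing cells of both embryos. BCAN and CLU are genes of the rule, which a cell with more UMIs meets at a lower CPM, so these values are a description with no test.

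The astrocyte genes were also read without the doubtful cells. Without the cells of over 20000 UMIs, 16 of 19 astrocyte genes tested were higher than in radial glia (10.0% of all genes in that fit), without cells having a UMI of MKI67 or TOP2A 15 of 18 (8.76%), with at least 4 module genes 15 of 19 (9.18%), and after thinning to 2000 UMIs 10 of 14 (6.59%). Leaving out cells of 2 or more UMIs of STMN2 and DCX removes 58.9% and 59.4% of the gliogenic cells. In that fit, 8 of 17 were higher (4.24% of all genes): APOE, ATP1B2, CST3, EDNRB, GJA1, PLA2G7, SPARC and SPARCL1. S1PR1 no longer passed (0.83 on the log2 scale, edgeR, adjusted p = 0.25). SLC4A4 and S100B, which passed the filter on low counts only through the gliogenic cells, were not called either. SLC4A4 stood at 3.93 on the log2 scale, against 4.16 in the main fit. S100B had no UMI in radial glia to set a fold change. No astrocyte gene was lower in any of these 5 fits. SPARCL1, at 243 and 476 CPM against 178 and 130 CPM, lost its call in DESeq2 (adjusted p = 0.36) and without the block for embryo (edgeR, adjusted p = 0.11), and its log2 fold change was 0.26 in embryo 1 and 1.77 in embryo 2. The counts of these 5 fits, too, hold genes that passed the filter on low counts only through the gliogenic cells, as 9 of 18 did in the main fit. ATP1B2 and PLA2G7 are such genes. The counts are therefore a description, and nothing is read from them about stability.

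Regional genes were found in some of the gliogenic cells. 40 cells, 19 in embryo 1 and 21 in embryo 2, had a UMI of midbrain and anterior hindbrain genes and of neither other list, 13 (9 and 4) of hindbrain HOX genes alone and 8 (5 and 3) of telencephalic genes alone. 8 had genes of more than one list and 73 of none. Counted with at least 2 UMIs, the numbers were 26, 5 and 2, and 106 cells had none. The midbrain and hindbrain list summed to 125 and 118 CPM in gliogenic cells, 124 and 168 CPM in radial glia and 127 and 172 CPM in neurons, so a single UMI of it does not place a cell in a region. The HOX list was low, at 31.8 and 17.9 CPM in gliogenic cells, 3.27 and 2.92 CPM in radial glia, 3.26 and 0.95 CPM in dividing progenitors and 7.18 and 2.41 CPM in neurons. Its 1 tested gene, HOXA2, passed the filter on low counts only through the gliogenic cells, so its values are a description with no p. HOXA2 measured 10.0 and 12.0 CPM against 3.27 and 2.92 CPM in radial glia, where it was not called. In dividing progenitors it measured 0.75 and 0.27 CPM (4.04 ± 0.79 on the log2 scale). Of the telencephalic, midbrain and hindbrain, HOX and ventral lists, 2, 6, 1 and 1 genes were tested against radial glia, and of these 1 midbrain and hindbrain gene was higher and 1 gene each of the first 2 lists was lower. Dorsal and diencephalic genes were lower in part: 4 of 8 tested were lower than in radial glia (7.62% of all genes), all of the ZIC family of zinc finger factors. IRX5 alone was higher (8.91% of all genes). Of the 5 calls, that of ZIC1 was left without cells having 2 or more UMIs of STMN2 and DCX, and those of ZIC1, ZIC2 and IRX5 in DESeq2. ZIC1 measured 16.7 and 12.0 CPM against 72.0 and 62.7 CPM (log2 fold change -2.41 ± 0.34, edgeR, adjusted p = 1.8e-06). ZIC2 was lower by -1.43 ± 0.35 (edgeR, adjusted p = 0.0029; 0.072 without the block for embryo), although 1 cell per embryo held 75.0% and 84.6% of its gliogenic UMIs.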

How the data were processed

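The authors prepared 1 library per embryo, ran cellranger count (Cell Ranger 3.1.0 per the labels) against the TS_2.0 assembly, and deposited a matrix of raw counts of UMIs, not normalized, with gene models as rows and barcodes as columns. Here the counts were read in Python 3.11.15, and the 23975 gene models were summed by name to 18543 names. Barcodes called as cells by the authors were kept from 500 genes on, and doublets were kept. UMIs of 4 classes in 2 embryos were summed to 8 libraries and tested in 1 fit with edgeR 4.0.16 in R 4.3.3 (TMM, filterByExpr, quasi-likelihood test, embryo as a block, p-values adjusted by Benjamini-Hochberg over all 7485 tested genes and called under 0.05). The biological coefficient of variation common to all genes was 0.0758. The block is the embryo, since all classes come from the same animals. The p-values rest on the spread of the 8 sums that is left after class and embryo are fitted. That spread is estimated with information shared over genes, and it comes from 2 animals only.

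The module, the 27 gene lists and the tests were chosen with earlier results of these data known. Genes were named from the lists, and by rank as the 10 highest and 10 lowest log2 fold changes against radial glia, and 5 and 5 against dividing progenitors, among called genes with a symbol, the same direction in both embryos and at least 50 CPM in the higher class. Values of some genes these rules name are not reported here. Shares carry exact Clopper-Pearson 95% intervals, and ratios of sums with 1 to 3 UMIs in one class an exact binomial interval; both cover counting error only. The annotation uses other names for some listed genes, such as TUBB3, so these were not read, and the alternative planned on STMN2, DCX and TUBB3 used STMN2 and DCX. Alternatives were RLE size factors, no filter on genes, DESeq2 1.42.0, no block, each embryo left out, other thresholds of the rule, cells thinned to 2000 UMIs, and cells left out by division, neuronal UMIs, haemoglobin, or Scrublet score (scanpy 1.11.5, the highest 0.8% per 1000 cells). Leaving out barcodes of over 20000 UMIs, or those whose sequence occurs in both embryos, and reading module genes without the filter, were chosen after seeing the data. The procedure was tested on simulated data for the comparison with radial glia, drawn from the same mean profile for all classes. Of 200 genes changed 4-fold in gliogenic cells, 70% were recovered, and 4.11% of the calls were false. The simulation held no other differences between classes and no single cells of many UMIs, so it does not measure the error of the calls above.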

Additional observations from a re-analysis of the deposited data

How the results depend on the processing

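Against radial glia, 667 genes were higher and 570 lower, 1237 in all. Thinning to 2000 UMIs gave 384, 365 and 749, and leaving out cells with 2 or more UMIs of STMN2 and DCX gave 321, 328 and 649. DESeq2 gave 530 higher and 336 lower genes, and RLE size factors gave 750 and 470. With at least 4 module genes, 708 were higher and 721 lower. Without gliogenic cells having a UMI of MKI67 or TOP2A, 666 were higher and 718 lower, so the balance against radial glia turned too. Against dividing progenitors, 976 were higher and 2134 called in all, with 593 and 1403 after thinning and 486 and 1336 without cells having neuronal UMIs; DESeq2 called 743 higher, 649 lower and 1392 in all. With RLE size factors 1048 were higher and 994 lower, and without cells of at least 1% haemoglobin UMIs 1088 and 1017, so more genes were higher than lower there. Without the replicate block, 525 genes were higher, 376 lower and 901 called against radial glia, and 770, 854 and 1624 against dividing progenitors. Without barcodes of over 20000 UMIs, 1428 genes were called against radial glia, with 599 of the 667 higher and 502 of the 570 lower among them.

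The share of gliogenic cells, 0.900%, was 1.47% with 2 module genes, 0.580% with 4, 1.19% with at least 1000 genes and 0.530% after thinning; single embryos gave 0.782 to 1.02%. As means over cells in place of sums, levels were 213 CPM for BCAN, 290 for VCAM1, 261 for SLC7A10, 422 for SPON1, 127 for SLC39A12, 4002 for CST3, 4420 for PTN, 3385 for VIM, 1588 for PTPRZ1 and 262 for GJA1. The regional groups of 8, 40 and 13 cells (telencephalon, midbrain and hindbrain, HOX) were 2, 26 and 5 with at least 2 UMIs.

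Leaving out each embryo, the held-out log2 fold changes against radial glia ranged from 4.20 to 4.48 for BCAN, 5.20 to 12.66 for VCAM1, 4.82 to 6.34 for SLC7A10, 4.88 to 6.51 for SPON1, 5.82 to 6.43 for CLU and 2.91 to 10.63 for SLC39A12; the high ends of VCAM1 and SLC39A12 are against 0 UMIs and are no bound. Against dividing progenitors they ranged from 5.93 to 6.13 for BCAN. For CLU, the log2 fold change against radial glia was 6.15 without the block and 6.23 with RLE size factors. These values are a description. No call is read for the other 5, which passed the filter on low counts only through the gliogenic cells.

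Without gliogenic cells having MKI67 or TOP2A UMIs, 4 mitotic genes and the histone gene H15 changed sign against radial glia (fitted log2 fold changes of -4.23 for TTK, -7.48 for DLGAP5, -0.36 for CCNA2, -6.49 for AURKB and -0.59 for H15), of which only DLGAP5 passed (edgeR, adjusted p = 0.044). CKAP2L and NUSAP1 kept their sign at 2.74 and 0.35 and did not pass. By construction this alternative leaves out dividing cells. TTK had 1 UMI in radial glia, so its fitted value is no exact fold change. INA was at 0.34 without cells having neuronal UMIs. With 2 module genes, TTR was at 2.84 against radial glia (edgeR, adjusted p = 0.028, past the threshold) and 1.08 against dividing progenitors; the cause was not tested. Depth limits what can be tested of genes with few UMIs, such as GFAP and AQP4.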
